A study of Mus musculus with 21 samples.

Results

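The genes described here are 10 markers of T cells and of cytotoxic lymphocytes, chosen by symbol from the 24062 genes of a mouse colon RNA-seq table: Cd3d, Cd3e, Cd3g, Cd4, Cd8a, Cd8b1, Foxp3, Gzma, Gzmb and Prf1. The study asked how mutations in App, the gene of the amyloid precursor protein, alter colon tumours induced by the carcinogen azoxymethane followed by the mucosal irritant dextran sulfate sodium (AOM/DSS). All mice were C57BL/6, either wild-type (WT) or App NL-G-F knock-in (KI), a strain whose own App locus carries mutations known from familial Alzheimer's disease, so the altered gene is driven by the mouse App promoter in every tissue that uses it. The 21 libraries form 7 groups of 3, namely normal colon and tumour of WT males, normal colon and tumour of KI males, normal colon and tumour of WT females, and normal colon of KI females. Tumour libraries carry the treatment label AOM/DSS and normal libraries the label of no treatment, whereas the study text also speaks of normal tissue adjacent to tumours, so a normal library may come from either kind of mouse. KI female tumours were not analysed here. Ages, and whether libraries of a group came from separate animals, are not given in the sources used here, so p-values measure only the spread between these libraries.

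A T cell recognises its target through an antigen receptor that signals through the CD3 chains, encoded by Cd3d, Cd3e and Cd3g. The coreceptors CD4 and CD8 (a dimer of the Cd8a and Cd8b1 products, or of the Cd8a product alone) bind MHC class II and class I and separate helper from cytotoxic T cells, and Foxp3 is the transcription factor of regulatory T cells. Cytotoxic T cells and natural killer cells kill with granules of perforin (Prf1), which opens membranes, and granzymes (Gzma, Gzmb), proteases that enter the target. In the colon such cells lie between epithelial cells, in the lamina propria and in lymphoid follicles, and Cd8a without Cd8b1 is common among intraepithelial lymphocytes. Whole-tissue RNA cannot tell fewer cells of a type from less RNA per cell.

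These transcripts were rare in the tissue, and that sets how firmly any difference can be worded. Libraries held 3414123 to 26174008 counts, and the 10 genes together took 49 to 426 counts of a library. Over all libraries Cd4 had 1250 counts, Foxp3 646, Cd3e 484, Gzmb 274, Cd8a 253, Cd3g 240, Gzma 238, Cd3d 196, Cd8b1 88 and Prf1 69. Levels are given in CPM, library counts scaled to a common total, with TMM-scaled library sizes, and 3 counts, taken as the detection floor, equalled 0.127 to 0.873 CPM depending on the library. Prf1 did not pass the filter on low counts, since its highest count was 8, so 9 of the 10 genes entered the test on 15936 genes. Per kilobase of annotated exon the highest mean level over 21 libraries was that of Cd4, 1.24 ± 0.61 CPM per kb (SD, n = 21). Gzma followed at 0.963 ± 0.92, Gzmb at 0.847 ± 0.73, Foxp3 at 0.556 ± 0.27, Cd3e at 0.466 ± 0.25 and Cd3d at 0.45 ± 0.31 CPM per kb. The lowest were Cd3g at 0.301 ± 0.17, Cd8a at 0.25 ± 0.17, Cd8b1 at 0.239 ± 0.3 and Prf1 at 0.109 ± 0.091 CPM per kb. Every pair of neighbours in this order differed by less than the larger SD of the pair.

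**Figure D1:**
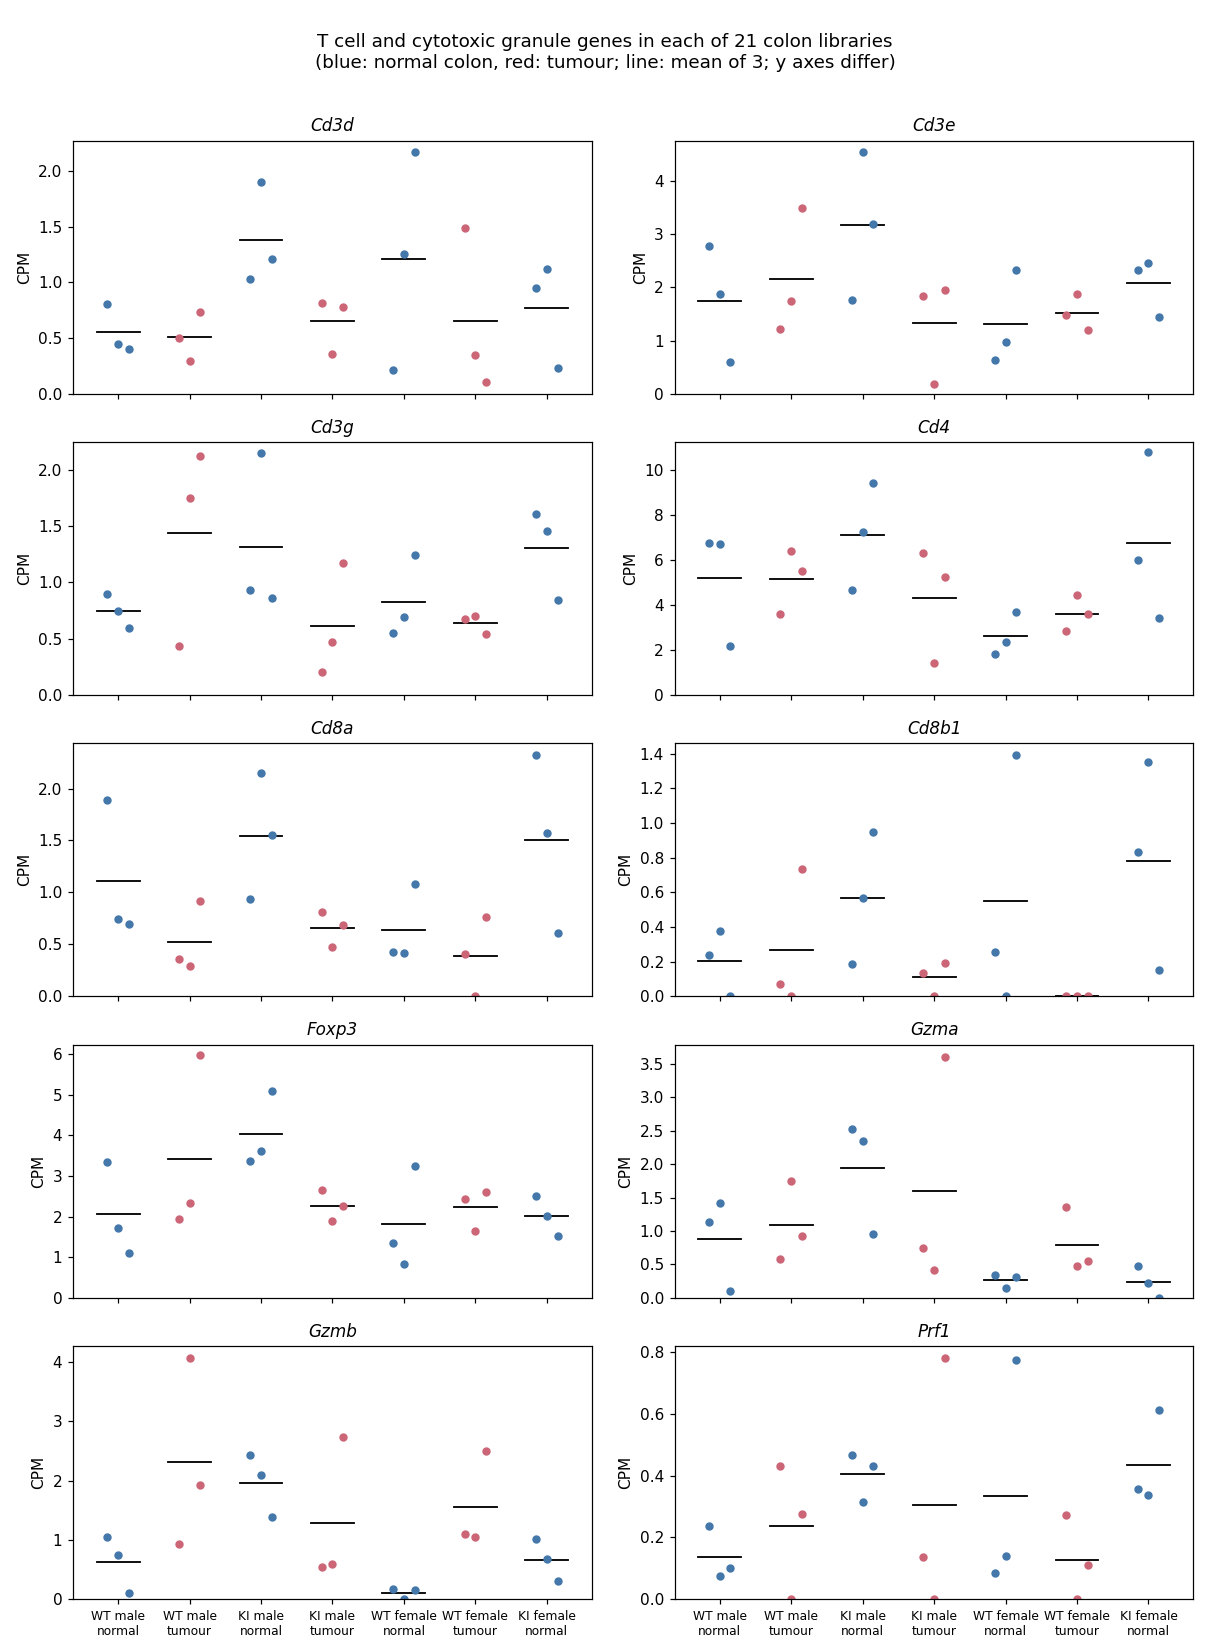
Level of each of the 10 genes in CPM (y axis, a separate scale per gene) in the 21 libraries, by group (x axis); points are libraries, blue for normal colon and red for tumour, and lines are means of 3. Gzmb in WT female normal colon lies at or under 0.169 CPM, and the 3 WT female tumours lie at 1.05 CPM or above; most other groups overlap.

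Differences were tested with edgeR's quasi-likelihood F test on all 21 libraries in a single fit, with Benjamini-Hochberg adjustment over the 15936 genes and a threshold of 0.05. Of the 9 genes tested in 12 comparisons, a single difference passed, namely higher Gzmb in the tumours of WT females. In that comparison 25% of all tested genes were called higher and 24% lower in WT female tumours. In WT male tumours 16.5% of genes were called higher and 19.3% lower, and in KI male tumours 10.4% and 9.97%, with no member called in either. The median half-width of the 95% interval of a member's log2 difference was 1.49 in WT males, 1.37 in KI males and 1.72 in WT females. These intervals are not adjusted for the number of genes, so differences of that size and larger could go uncalled. Examples are Gzmb at 1.62 in WT males and Cd8b1 at -2.42 in KI males.

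Of the granule genes, Gzmb carried the single call. Gzmb (chr14:56258836-56262334, minus strand, GRCm38.p6) had 4, 0 and 1 counts in WT female normal colon, or 0.169, 0 and 0.155 CPM. The WT female tumours had 8, 9 and 23 counts, or 1.09, 1.05 and 2.5 CPM. All 3 tumours lay above all 3 normal samples. The share of all genes that separate in this way was not counted for this comparison, where 25% of genes were called higher. The means were 0.108 ± 0.094 and 1.55 ± 0.83 CPM (SD, n = 3 each), and the fitted log2 difference was 3.51 (SE 0.95, edgeR adjusted p = 0.00494). The normal mean lies under the mean level of 3 counts in those libraries, 0.336 CPM, so the fitted size depends on the prior count. The tumour mean was 4.6 times that floor, a ratio of means without an interval. The 95% interval of the fitted log2 difference was 1.52 to 5.5. The difference was 3.39 with the replicate number as a block (edgeR adjusted p = 0.0135) and 2.97 to 4.21 when each library was left out in turn, with adjusted p up to 0.0287. A further fit held a term for the libraries whose deposited number is 152 or above. These are WT female tumours 2 and 3 and KI male tumour 3, and the KI female normal samples are all numbered lower. In that fit the difference was 2.38 (edgeR adjusted p = 0.0687) and no longer passed. Tumour 1, the only WT female tumour outside that set, had 1.09 CPM on 8 counts. The part of library number in the difference cannot be told from 1 library. Gzmb belongs to a family of close granzyme paralogs, and how reads shared between them were assigned is not stated, so its counts carry that uncertainty.

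**Figure D2:**
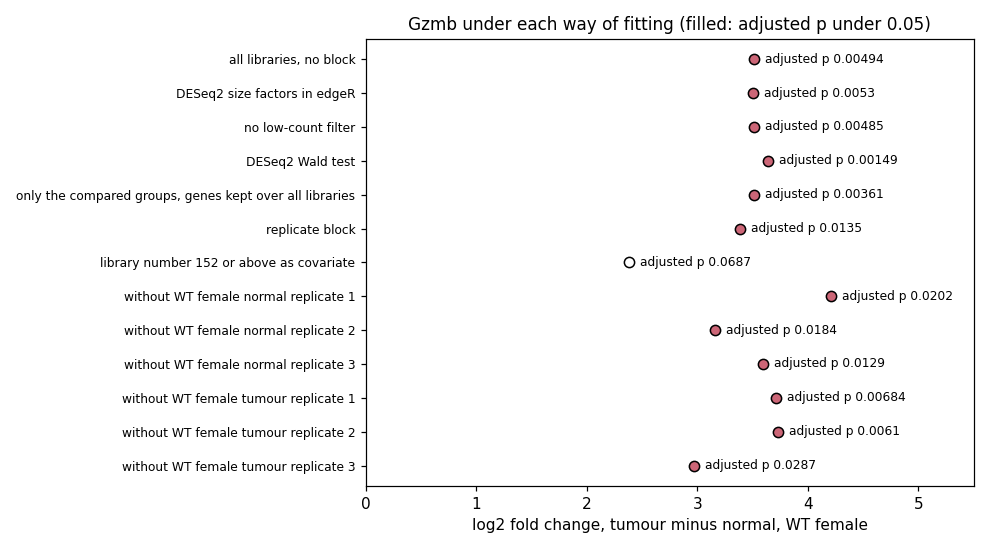
Fitted log2 fold change of Gzmb between WT female tumours and normal colon (x axis) under each way of fitting (y axis), with its adjusted p beside each point; filled points passed 0.05. The point from the fit with the library-number term, 2.38, is the open one.

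In WT males Gzmb stood at 1.04, 0.748 and 0.0994 CPM in normal colon and at 0.935, 4.07 and 1.93 CPM in tumours, and the groups overlapped. The log2 difference was 1.62 (SE 0.74, edgeR adjusted p = 0.0942). The tumour with 4.07 CPM is the shallowest library, and that value rests on 14 counts. The WT female difference exceeded the WT male one by 1.89 on the log2 scale, and this interaction did not pass (SE 1.21, edgeR adjusted p = 0.541), so the sexes were not shown to differ in it. In that interaction 0.929% of genes were called higher and 0.195% lower, and no member was. In KI males normal colon already held 2.43, 2.09 and 1.38 CPM, and the tumours 0.544, 0.591 and 2.73 CPM, a log2 difference of -0.67 (SE 0.68, edgeR adjusted p = 0.508). That value depended on tumour 3, and was -1.77 without it (edgeR adjusted p = 0.103) and -1.48 with the library-number term (adjusted p = 0.143). KI female normal colon held 1.01, 0.674 and 0.306 CPM, with a log2 difference from WT female normal colon of 2.31 (SE 0.99, edgeR adjusted p = 0.117). Since the WT female normal mean lies under the floor, that size depends on the prior count. The KI mean was 1.97 times the WT floor level, a ratio of means without an interval. The order of group means was WT male tumour 2.31, KI male normal 1.97, WT female tumour 1.55, KI male tumour 1.29, KI female normal 0.664, WT male normal 0.629 and WT female normal 0.108 CPM. Each neighbouring pair in that order overlapped between libraries.

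Gzma (chr13:113093824-113100981, minus strand, GRCm38.p6), the other granzyme, followed Gzmb across the 21 libraries with Pearson r = 0.78 and Spearman rho = 0.81, and with r = 0.84 once group means were removed. These are descriptions, since libraries share depth and tissue composition. Gzma stood at 0.338, 0.139 and 0.309 CPM in WT female normal colon and at 1.36, 0.468 and 0.543 CPM in WT female tumours. The normal counts were 8, 1 and 2, and the log2 difference of 1.43 did not pass (SE 1.02, edgeR adjusted p = 0.263). The normal mean, 0.262 CPM, lies under the mean level of 3 counts in those libraries, 0.336 CPM. Its widest difference lay between KI normal colons, with 2.52, 2.34 and 0.95 CPM in males and 0.476, 0.225 and 0 CPM in females. That log2 difference, female minus male, was -2.92 (SE 0.92, unadjusted p = 0.00524, edgeR adjusted p = 0.134). The female mean, 0.234 CPM, lies under the mean level of 3 counts there, 0.248 CPM, so the fitted size depends on the prior count. The male mean was 7.8 times that floor, a ratio of means without an interval. Prf1 (chr10:61297751-61304684) had 0 to 8 counts per library, and its group means ran from 0.127 ± 0.14 CPM in WT female tumours to 0.435 ± 0.15 CPM in KI female normal colon, with all groups near the floor.

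The promoters of both granzymes are shown because both levels moved together across libraries and Gzmb rose in WT female tumours. The 250 bases before the start given by RefSeq (GRCm38.p6) are printed 5′ to 3′ on the gene's own strand. Capitals mark 2 motifs known from genes of activated T cells, searched on both strands, AP-1 (TGACTCA or TGAGTCA) and Runx (TGTGGT, or ACCACA as its reverse). The first lies at chr14:56262335-56262584 and the second at chr13:113100982-113101231.
Gzmb: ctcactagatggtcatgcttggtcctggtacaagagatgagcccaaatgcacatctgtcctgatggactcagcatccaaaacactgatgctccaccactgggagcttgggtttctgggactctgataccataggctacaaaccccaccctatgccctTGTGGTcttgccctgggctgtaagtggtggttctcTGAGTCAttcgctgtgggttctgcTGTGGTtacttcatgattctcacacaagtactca
Gzma: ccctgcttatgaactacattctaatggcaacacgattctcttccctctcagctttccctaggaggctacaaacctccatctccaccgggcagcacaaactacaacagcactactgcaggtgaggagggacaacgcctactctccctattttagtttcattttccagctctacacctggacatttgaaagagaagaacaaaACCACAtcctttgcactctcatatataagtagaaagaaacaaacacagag
The Gzmb window held 1 AP-1 match and 2 Runx matches, and the Gzma window held 1 Runx match and no AP-1 match. Of the 9 windows available for members, that of Prf1 also held a Runx match, and no other member's did. Among 32851 mouse promoter windows of the same length, 4.46% held an AP-1 match and 14% a Runx match. The RefSeq start of Gzmb lies 74 bases upstream of the start in the GENCODE annotation. A match describes the letters only, and binding was not measured.

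The receptor chains showed no called difference. Cd3e stood at 2.79, 1.87 and 0.597 CPM in WT male normal colon and at 1.22, 1.75 and 3.5 CPM in WT male tumours. In KI males it stood at 1.77, 4.55 and 3.2 CPM in normal colon and at 1.84, 0.177 and 1.95 CPM in tumours. In females it stood at 0.634, 0.975 and 2.32 CPM in WT normal colon, 1.49, 1.87 and 1.2 CPM in WT tumours, and 2.32, 2.47 and 1.45 CPM in KI normal colon. The group ranges of Cd3e overlapped in each of the 3 tumour comparisons. KI male tumour 2, with 3 counts, was the lowest library of all. Summed over Cd3d, Cd3e and Cd3g, the highest group mean was in KI male normal colon, where the libraries held 3.74, 8.6 and 5.27 CPM, against 2.86, 1.01 and 3.91 CPM in KI male tumours. Cd3d ranged from 0.109 CPM in a WT female tumour to 2.17 CPM in WT female normal colon. Cd3g ranged from 0.204 CPM in a KI male tumour to 2.15 CPM in KI male normal colon. The 3 genes lie side by side (Cd3g chr9:44969572-44980431, Cd3d chr9:44981769-44987052, Cd3e chr9:44998735-45009663, GRCm38.p6), with Cd3g and Cd3e on the minus strand.

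Among the coreceptors, Cd4 (chr6:124864693-124888247) was the most abundant member and had a count of at least 17 in each library. It stood at 1.82, 2.37 and 3.71 CPM in WT female normal colon and at 6.01, 10.8 and 3.44 CPM in KI female normal colon, ranges that overlap at 1 library. That log2 difference was 1.39 (SE 0.54, edgeR adjusted p = 0.0865), while DESeq2 gave an adjusted p of 0.048. In tumours Cd4 stood at 3.6, 6.4 and 5.52 CPM in WT males, 6.33, 1.42 and 5.27 CPM in KI males, and 2.85, 4.44 and 3.59 CPM in WT females. None of those sets separated from its normal colon. Cd8a (chr6:71373427-71379171) had a lower mean in tumours than in normal colon in all 3 settings, with 1.11 ± 0.67 and 0.524 ± 0.35 CPM in WT males, 1.55 ± 0.61 and 0.658 ± 0.17 CPM in KI males, and 0.641 ± 0.38 and 0.389 ± 0.38 CPM in WT females (SD, n = 3 each). Its log2 differences were -1.02, -1.25 and -0.58, with edgeR adjusted p of 0.275, 0.177 and 0.586. In pooled counts the ratio of Cd8a to Cd4 was 0.224 in WT male normal colon (95% interval 0.165 to 0.299) and 0.121 in the tumours (0.0673 to 0.204). It was 0.226 and 0.158 in KI males, and 0.238 and 0.109 in WT females. These intervals, exact binomial, cover counting error only and overlap in each pair.

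Cd8b1 (chr6:71322788-71337492), the second CD8 chain, had 0 counts in 7 of 21 libraries. All 3 WT female tumours were at 0, whereas WT female normal colon had 6, 0 and 9 counts, or 0.253, 0 and 1.39 CPM. The normal mean was 1.52 times the mean level of 3 counts in the tumour libraries, a ratio of means without an interval. The test by edgeR did not pass (adjusted p = 0.059). DESeq2 called it (adjusted p = 0.0245), and so did edgeR without WT female normal library 2, which has 0 counts (adjusted p = 0.0328). KI male tumours had 2, 0 and 2 counts and KI male normal colon 2, 9 and 11. There the normal mean was 2.53 times the floor level of the tumours. The fitted log2 difference was -2.42 (95% interval -5.12 to 0.28, edgeR adjusted p = 0.184). Cd8a was still counted in WT female tumours, with 3, 0 and 7 counts, so 0 of Cd8b1 beside 10 of Cd8a allows a pooled ratio of up to 0.446 at 95% confidence, against 0.75 (0.357 to 1.54) in WT female normal colon.

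Foxp3 (chrX:7579676-7595243) was counted in each library, with at least 6 counts. It stood at 3.35, 1.72 and 1.09 CPM in WT male normal colon and at 1.94, 2.33 and 5.98 CPM in WT male tumours. In KI males it stood at 3.36, 3.61 and 5.1 CPM in normal colon and at 2.65, 1.89 and 2.25 CPM in tumours, and those groups did not overlap. The log2 difference in KI males was -0.83 (SE 0.47, edgeR adjusted p = 0.212). In females it stood at 1.35, 0.836 and 3.25 CPM in WT normal colon, 2.44, 1.64 and 2.61 CPM in WT tumours, and 2.5, 2.02 and 1.53 CPM in KI normal colon. Relative to the 3 CD3 genes, pooled Foxp3 counts were 0.691 in WT male normal colon and 0.893 in the tumours, 0.641 and 0.949 in KI males, and 0.648 and 0.812 in WT females. The single-library ratios overlapped in each pair, for example 0.419 to 0.967 and 0.575 to 1.88 in KI males.

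In KI males all 9 fitted tumour differences were negative, with a median log2 of -1.11 beside 0.01 over all tested genes, and none had an unadjusted p under 0.05, against 35.9% of all tested genes. Ptprc, which encodes the leukocyte antigen CD45, differed by -0.9 there and was not called, and the 4 dendritic cell genes had a median of -1.15, with Flt3 and Siglech called lower (log2 -1.55 and -2.34). The 3 macrophage genes had a median of -0.39, while the 4 neutrophil genes (median 1.81) and the 4 mast cell genes (median 0.9) went the other way, none of them called. Cd3d, Cd8a and Foxp3 were lower in all 3 KI tumours than in all 3 KI normal colons, as were 17.5% of tested genes. In WT males 6 were positive and 3 negative (median 0.27), and in WT females 5 positive and 4 negative (median 0.32). With the ratio of Cd8b1 to the floor in place of its fitted value, the medians in KI males and WT females were the same. Between male normal colons all 9 were higher in KI than in WT, with a median log2 of 0.93 beside 0. Ptprc differed by 0.73 in the same direction, the 4 B cell genes had a median of 1.03 and the 4 dendritic cell genes one of 0.62, none of them called. The medians of the 3 macrophage, 4 neutrophil and 4 mast cell genes were 0.32, 0.21 and -0.9, so the mast cell genes went the other way, and none of these was called. Of the 9 members Gzmb had the largest difference (log2 1.53, SE 0.71, edgeR adjusted p = 1). Cd3d, Foxp3 and Gzmb were higher in all 3 KI libraries than in all 3 WT libraries, as were 3.74% of tested genes, while 0.00628% were called higher and 0.00628% lower. The tests in male normal colon and in KI male tumours share the 3 KI male normal libraries, so these 2 sign patterns are not independent. Of those, library 2 had the highest Ptprc level of the series, 139 CPM against 27.6 to 90.7 CPM in the other libraries.

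**Figure D3:**
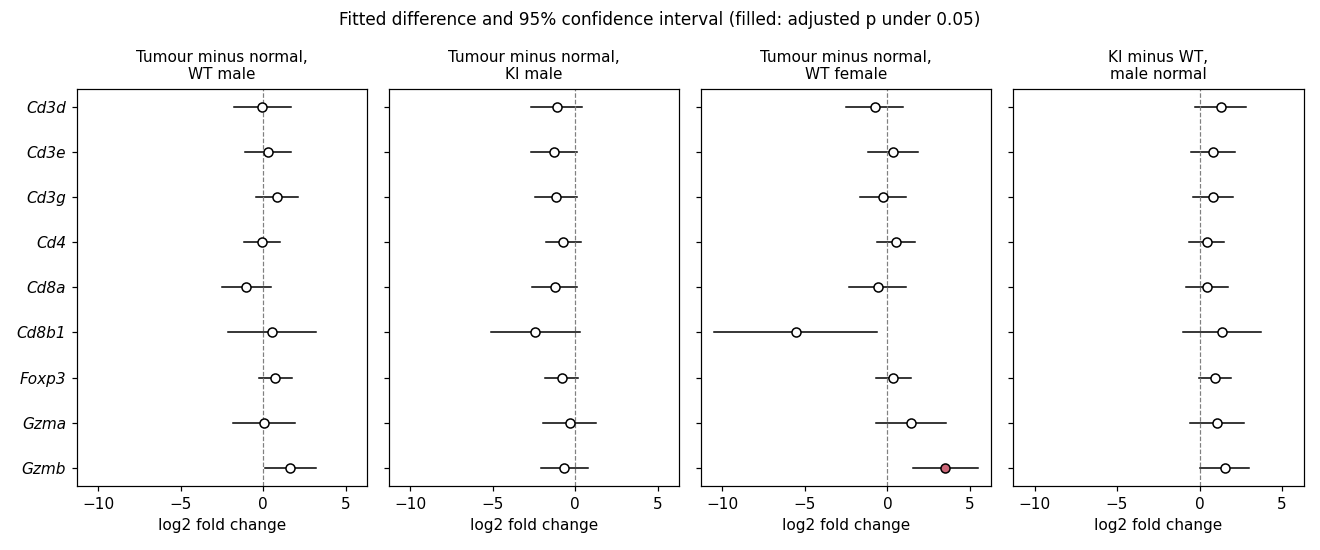
Fitted log2 fold change (x axis) of the 9 tested genes (y axis) with 95% confidence intervals in 4 comparisons; the filled point passed an adjusted p of 0.05. All 9 points lie below 0 in KI male tumours and above 0 in KI minus WT male normal colon, and most intervals include 0. The Cd8b1 estimate in WT females rests on a tumour group at 0 counts and is no bound.

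The difference between KI and WT males in the tumour effect was tested directly, and all 9 estimates were negative, with a median log2 of -1.55 beside 0.05 over all tested genes. The 3 KI male normal libraries also enter this test, so its signs are not independent of the patterns above. Ptprc differed by -0.81, and medians were -1.1 for 4 B cell, -1.07 for 3 macrophage and -0.95 for 4 dendritic cell genes. For 4 neutrophil, 4 mast cell and 2 plasma cell genes they were -0.29, -0.26 and 0.1. None of these genes was called. The unadjusted p was under 0.05 for Cd3g (log2 -2.01, SE 0.85), Foxp3 (-1.55, SE 0.67) and Gzmb (-2.29, SE 1.01), 3 of 9, where 25.2% of all tested genes had such a p. After adjustment by edgeR they stood at 0.155, 0.163 and 0.169, and none passed. In that interaction 1.14% of genes were called higher and 0.37% lower. Tumours of KI and WT males compared directly gave 6 negative and 3 positive differences (median -0.63), none called, where 9.3% of genes were called higher and 5.23% lower in KI. Cd3g had the largest shift relative to its error, at 0.432, 1.75 and 2.12 CPM in WT tumours and 0.204, 0.473 and 1.17 CPM in KI tumours (log2 -1.2, SE 0.63, edgeR adjusted p = 0.189).

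Other comparisons held no called member either. In female normal colon 8.97% of genes were called higher and 7% lower in KI than in WT. Members there were 7 positive and 2 negative (median 0.74), with Cd4 and Gzmb at unadjusted p under 0.05, as were 31.2% of all tested genes. Between the sexes, female minus male, 0.402% of genes were called higher and 0.458% lower in WT tumours, where Gzmb differed by -0.42 (SE 0.72, edgeR adjusted p = 0.78). In WT normal colon 5.74% were called higher and 10.2% lower, and Gzmb differed by -2.31 (SE 0.97, edgeR adjusted p = 0.111). The WT female mean of Gzmb lies under the floor, and the WT male mean was 1.87 times that floor level. In KI normal colon 0.182% were called higher and 0.402% lower. Foxp3, Gzma and Gzmb were there lower in all 3 females than in all 3 males, as were 9.7% of tested genes, and Gzmb differed by -1.53 (SE 0.72, edgeR adjusted p = 0.321). No member passed the test of whether females and males differ in the genotype effect on normal colon, with 1.76% of genes called higher and 0.778% lower in that interaction.

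Counts were also set against those of Ptprc in the same library. Gzma, Gzmb and Prf1 together gave 1.17, 0.592 and 1.37 counts per 100 Ptprc counts in WT female normal colon and 4.32, 4.08 and 6.76 in WT female tumours. These ranges did not overlap, and the share of all genes that separate in this way against Ptprc was not counted. Gzmb made up most of the shift between these groups, from 5 to 40 pooled counts, the same counts that gave its call. Gzma went from 11 to 19 and Prf1 from 8 to 3. The CD3 genes gave 2.76, 6.21 and 6.31 in normal colon and 5.83, 7.84 and 3.96 in tumours, with overlap, and whether the granule and CD3 sums differ in this was not tested. In KI males the CD3 genes gave 6.72, 6.18 and 9.26 in normal colon and 5.46, 3.65 and 7.09 in tumours, again with overlap, and in WT males 5.75, 7.36 and 5.08 in normal colon and 5.03, 7.88 and 12.3 in tumours. KI female normal colon gave 5.48, 5.81 and 6.29 CD3 counts per 100. In WT males the granule genes gave 3.09, 5.39 and 0.952 in normal colon and 4.52, 12.1 and 6.06 in tumours. In KI males they gave 9.75, 3.41 and 4.86 in normal colon and 2.73, 3.65 and 12.9 in tumours, where tumour 3 alone was high. KI female normal colon gave 2.07, 1.42 and 2.29 granule counts per 100, above all WT female normal values, again without a count over all genes. Ptprc itself was not called in any of the 12 comparisons.

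**Figure D4:**
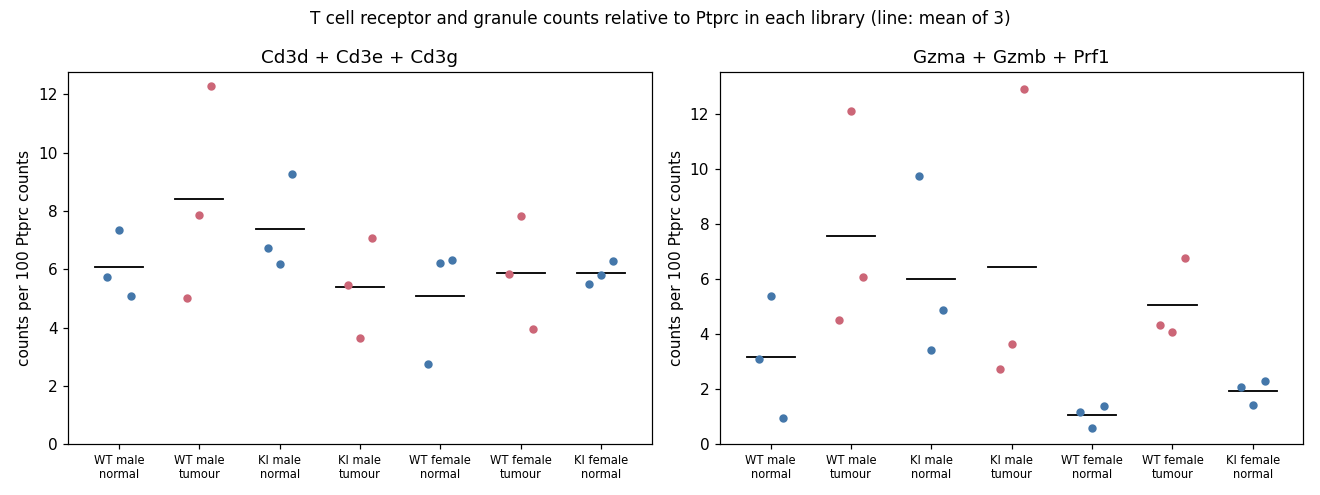
Counts of the 3 CD3 genes (left) and of the 3 granule genes (right) per 100 counts of Ptprc (y axes) in each library by group (x axis), with lines at means of 3. The granule counts of WT female normal colon, 0.592 to 1.37, lie under those of WT female tumours, 4.08 to 6.76, while the CD3 counts overlap. The share of all genes that separate in this way was not counted.

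Markers of other cells moved in the same samples. The 4 mast cell genes, from a cell type that can itself make granzyme B, summed to 4.18 to 7.27 CPM in WT female normal colon and 20.9 to 30 CPM in the tumours, and Mcpt1, Mcpt2 and Cpa3 rose (log2 3.28, 3.06 and 2.61). The 4 neutrophil genes summed to 2.79 to 6.96 and 46.4 to 152 CPM, and all 4 rose. The 4 B cell genes summed to 6.27 to 39.6 and 0.95 to 3.27 CPM in WT females, and all 4 fell. In KI males the B cell genes summed to 28.9 to 94.9 CPM in normal colon and 3.37 to 26 CPM in tumours, and 3 of 4 fell, beside the negative but uncalled T cell genes. All 5 smooth muscle genes fell in all 3 tumour comparisons, from 1460 to 3320 to 132 to 158 CPM in WT females. The 4 epithelial genes fell in both WT tumour comparisons. The part of these markers in the results on T cell genes was not tested.

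Among 12 counted genes of the receptor complex and its proximal signalling, 2 rose and 1 fell in WT female tumours, beside a list median of -0.14. Counts for this and the other lists in WT female tumours stand beside 25% of all tested genes called higher and 24% lower, so most of these shares are near or below that background. Zap70, the kinase that docks on the CD3 chains, went from 1.48 ± 0.34 to 13.7 ± 2.4 CPM (log2 3.26, edgeR adjusted p = 0.00226). Lcp2, the adaptor SLP-76, went from 5.39 ± 0.81 to 12.7 ± 4.2 CPM (log2 1.25, edgeR adjusted p = 0.00861). Both calls held under all 13 alternatives. Per kilobase of exon, Zap70 stood at 4.58 and Lcp2 at 2.85 CPM per kb in WT female tumours, beside 0.196 to 0.373 for the CD3 genes. Which cells carried these 2 transcripts was not tested. Cd28, a costimulatory receptor, fell from 4.64 ± 2.3 to 1.08 ± 0.6 CPM (log2 -2.08, edgeR adjusted p = 0.0225). That call was lost with the library-number term (adjusted p = 0.0679), and without WT female normal 2 (0.0513), normal 3 (0.0815), tumour 2 (0.0794) or tumour 3 (0.0808). In WT males only Lcp2 of the 12 rose (log2 1.24, edgeR adjusted p = 0.0116), a call lost without WT male normal 3 (adjusted p = 0.0571). In KI male tumours none of the 12 was called, and the median was -1.06.

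Of 11 tested genes of regulatory T cells and of checkpoints, 4 rose in WT female tumours and none fell, with a median log2 of 1.3. Tnfrsf9, the costimulatory receptor 4-1BB, went from 0.686 ± 0.48 to 14.3 ± 3.4 CPM (log2 4.65, edgeR adjusted p = 0.000204). Havcr2, the inhibitory receptor TIM-3, went from 2.07 ± 0.75 to 6.2 ± 1.3 CPM (log2 1.62, edgeR adjusted p = 0.00134), and both calls held under all 13 alternatives. The other 2, named after their values were seen, were Ctla4 and Lag3, inhibitory receptors of activated T cells (log2 1.74 and 1.49, edgeR adjusted p = 0.0397 and 0.0447). Per kilobase of exon, Tnfrsf9 stood at 5.25, Havcr2 at 2.28, Ctla4 at 1.56 and Lag3 at 0.996 CPM per kb in WT female tumours. The CD3 genes stood there at 0.196 to 0.373 CPM per kb, and which cells carried the 4 transcripts was not tested. In WT males 1 of the 11 fell, the Ikaros-family factor Ikzf2 (log2 -1.02, edgeR adjusted p = 0.021), a call lost without WT male normal 3, tumour 2 or tumour 3 (adjusted p = 0.0683, 0.0544 and 0.0845). Ikzf2 stood at 4.84 CPM per kb in WT male normal colon and 2.38 in the tumours, beside 0.45 and 0.747 for Foxp3. Which cells carried Ikzf2 was not tested. Ikzf2 was higher in KI than in WT male tumours (log2 1.38, edgeR adjusted p = 0.0145), but not without KI tumour 2 (log2 0.82, adjusted p = 0.0873) or WT tumour 3 (adjusted p = 0.0634), nor with the compared groups alone (adjusted p = 0.0778). None of the 11 was called in KI male tumours. Among 6 tested genes of other cytotoxic effectors, only Nkg7, a granule membrane protein, was called. It was at 0 counts in WT female tumours against 14 in normal colon, where its mean was 1.53 times the floor level of the tumours. That call was lost without WT female normal 2 or 3, or without any 1 of the 3 tumours (adjusted p = 0.0514 to 0.0769).

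Of 10 tested genes of T cell identity and homing, 3 rose in WT female tumours, Tcf7, Lef1 and Bcl11b, transcription factors of the T lineage. Tcf7 went from 4.51 ± 1 to 53.9 ± 3.8 CPM (log2 3.63, edgeR adjusted p = 3.17e-06), and Bcl11b from 34.1 ± 5.7 to 63.8 ± 4.8 CPM (log2 0.9, edgeR adjusted p = 3.62e-05), and both calls held under all 13 alternatives. Lef1, named there after its value was seen, differed by log2 5.06. Tcf7, Lef1 and Bcl11b also rose in WT males, with log2 1.82 for Tcf7 (edgeR adjusted p = 0.00114) and 2.31 for Lef1 (edgeR adjusted p = 0.0117, lost without WT male normal 3 at 0.0526). Per kilobase of exon, Tcf7 stood at 20.5, Bcl11b at 7.87 and Lef1 at 6.66 CPM per kb in WT female tumours, while the T cell members stood at 0 to 1.08 CPM per kb in the same group. Tcf7 and Lef1 also act in Wnt signalling of epithelial cells, so these levels are not a measure of T cells alone. In KI males none rose, and Themis, a T cell receptor signalling protein, fell from 1.33 ± 0.59 to 0.215 ± 0.05 CPM (log2 -2.59, edgeR adjusted p = 0.0247). That call was lost with the compared groups alone and all filtered genes kept (adjusted p = 0.0507), and without KI male normal 2 (0.0591), normal 3 (0.0772), tumour 2 (0.0811) or tumour 3 (0.0607).

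Of 7 tested signals that attract or maintain T cells, 1 rose and 2 fell in WT female tumours, and 2 rose and 2 fell in WT male tumours, where 16.5% of all genes were called higher and 19.3% lower. Cxcl16, the ligand of the chemokine receptor CXCR6 of T cells, rose in WT female tumours (15.9 ± 5.5 to 40 ± 6.3 CPM, log2 1.34, edgeR adjusted p = 0.000105) and in WT male tumours (log2 1.05, edgeR adjusted p = 0.00157), under all 13 alternatives in each. It was lower in KI than in WT male tumours (30.6 ± 4.2 and 49.4 ± 7.7 CPM, log2 -0.69, edgeR adjusted p = 0.0456), a call kept in 4 of 13 alternatives and lost without any 1 of the 6 tumours (adjusted p up to 0.157). Cxcl10, a ligand of the receptor CXCR3, was called higher in WT male tumours (1.34 ± 0.31 to 4.61 ± 3.4 CPM, log2 1.67, edgeR adjusted p = 0.0315), a call kept in 6 of 13 alternatives and lost with the replicate block (adjusted p = 0.0553), the compared groups alone (0.0716), and without WT male normal 2 (0.0857), normal 3 (0.0932), tumour 2 (0.179) or tumour 3 (0.0655). Il7, a survival cytokine of T cells, fell in WT females (19.9 ± 4.9 to 7.15 ± 2.7 CPM, log2 -1.47, edgeR adjusted p = 0.000255) and in WT males (log2 -1.07, edgeR adjusted p = 0.00717). Il15, which maintains memory CD8 T cells and natural killer cells, fell in WT females (log2 -0.85, edgeR adjusted p = 0.00424) and in WT males (log2 -0.82, edgeR adjusted p = 0.00808, lost without WT male normal 3 at 0.0696). In KI male tumours none of the 7 tested genes of this list was called. The list of MHC class I presentation had 2 of 7 genes called lower in KI male tumours, Tap2 (log2 -0.82) and Tapbp (log2 -0.46), and both calls were lost with the compared groups alone (adjusted p = 0.125 and 0.163). Without KI male normal 3, tumour 1 or tumour 2, each of those calls was lost as well, and that of Tapbp also without KI male normal 2. Tapbp was also called lower in WT female tumours (log2 -0.4, edgeR adjusted p = 0.0358, kept in 8 of 13 alternatives and lost without normal 1 or 2 or any 1 of the tumours, up to 0.12) and lower in KI than in WT male tumours (log2 -0.46, edgeR adjusted p = 0.0495, kept in 5 of 13 and lost without any 1 of the tumours other than KI tumour 3, up to 0.183). These shares stand beside 9.97% of all genes called lower in KI male tumours.

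In normal colon the clearest difference among these lists was that of Thy1, a surface protein of T cells that fibroblasts and neurons also carry. It stood at 6.85 ± 0.79 CPM in WT females, 18.3 ± 2 CPM in KI females, 15.8 ± 3.1 CPM in WT males and 17.3 ± 2.4 CPM in KI males (SD, n = 3 each). It was higher in KI than in WT females (log2 1.42, edgeR adjusted p = 3e-04, kept under all 12 alternatives) and lower in WT females than in WT males (log2 -1.22, edgeR adjusted p = 0.000933, kept under all 13). The 5 smooth muscle genes summed to 1460 to 3320 CPM in WT female and 5440 to 7710 CPM in KI female normal colon, where 2 of 5 were called higher, and their part in the Thy1 result was not tested. Tcf7 was also lower in WT female than in WT male normal colon (4.51 ± 1 and 19 ± 9.3 CPM, log2 -2.14, edgeR adjusted p = 0.0024), as were Lef1 (1.75 ± 1 and 16 ± 9.5 CPM, log2 -3.21, edgeR adjusted p = 0.0131, kept in 10 of 13 alternatives) and Tnfrsf9 (0.686 ± 0.48 and 3.88 ± 2.9 CPM, log2 -2.79, edgeR adjusted p = 0.0306, kept in 6 of 13). Il7 was higher there in females (19.9 ± 4.9 and 11.3 ± 1.3 CPM, log2 0.81, edgeR adjusted p = 0.0459, kept in 6 of 13). Between KI normal colons Il15 was higher in females (30.2 ± 7 and 13.6 ± 1.7 CPM, log2 1.14, edgeR adjusted p = 0.0431, kept in 7 of 12). In female normal colon Il15 was higher in KI than in WT (log2 0.84, edgeR adjusted p = 0.0142, kept in 9 of 12), and Cd160 was lower (log2 -1.12, edgeR adjusted p = 0.0305, kept in 8 of 12). Between WT normal colons the calls were lost without female 1 or 2 or male 1 for Lef1 (adjusted p up to 0.0678), Tnfrsf9 (up to 0.16) and Il7 (up to 0.217), without female 3 or male 2 for Tnfrsf9, and without male 2 or 3 for Il7. Between KI normal colons that of Il15 was lost without male 1 or 3 or female a or b (up to 0.195). In female normal colon those of Il15 (up to 0.096) and Cd160 (up to 0.135) were lost without WT 1, WT 2 or KI a, and that of Cd160 also without KI b. No gene of the CD3, coreceptor, Foxp3 or granule set was called beside them.

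For 3 members the tested genes with the most similar pattern over the 21 libraries were listed, by Pearson r of log2 CPM among 12460 genes. Cd3e was nearest to Nckap1l, Nrros, Rasal3, Arhgap30 and Rasgrp1 (r = 0.83 to 0.84), and Foxp3 to Ptpn7 (r = 0.87), Nckap1l, Trpm2 and Il2rb. Gzmb was nearest to Sema4d (r = 0.89), Sik1, Hcls1, Itgb2 and Limd2. Among the members themselves Cd3e and Cd4 had the highest r, 0.86, and 0.87 within groups, while Cd3d and Gzmb had r = -0.05. These correlations share depth and tissue composition between libraries and are given without a test.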

How the data were processed

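Per the labels' protocols, Qiazol-extracted total RNA was freed of ribosomal RNA by an RNase H kit, and randomly primed cDNA libraries were read on a NovaSeq instrument. The authors deposited raw counts per gene for 24062 genes and 21 libraries, and Trimmomatic, HISAT2 and featureCounts with the mm10 build are named in the submitters' processing notes, without versions. Strand setting, annotation and the handling of reads shared by paralogs or overlapping genes are not given in the sources used here. Of the columns, 2 of KI female normal colon share a header, so they were used as unnumbered replicates a and b of that group. Per-sample columns left unused numbered 0.

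Computed here were CPM with TMM-scaled library sizes, log2 CPM with a prior count of 2, and the quasi-likelihood F test of edgeR on these counts (robust, filterByExpr by group, 1 coefficient per group, all 21 libraries, two-sided, Benjamini-Hochberg over 15936 genes, threshold 0.05). There were 9 comparisons of 2 groups and 3 interactions. Standard errors come from the log2 difference and the F statistic. Intervals on ratios of counts are exact binomial (Clopper-Pearson) at 95%, and they cover counting error only, as does the floor of 3 counts. The versions were edgeR 4.0.16 and DESeq2 1.42.0 under R 4.3.3, and Python 3.11.15, and the edgeR step was tested on simulated data. Library pairs within a group differed beyond sampling noise (chi-square per degree of freedom 6.6 to 63.4). Exon lengths are from GENCODE vM21 and positions and promoters from RefSeq (GRCm38.p6).

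Deviations from the group mean in same-numbered WT male tumour and normal libraries had r = 0.17, 0.17 and 0.21 over genes. Libraries numbered 1 that cannot come from the same mouse reached 0.46 (KI and WT male normal) and 0.34 (KI female and KI male normal). Pairing by number was thus not established, and the replicate block is only an alternative fit. No other comparison with 3 numbered pairs had r over 0.1 in each pair. The members and lists were chosen with earlier results of these data known. Named genes are the 10 members in each comparison. From each list of other T cell genes up to 2 genes in each direction with the smallest adjusted p were named, and for Cd3e, Foxp3 and Gzmb the 5 genes with the highest r among tested genes with a mean of at least 50 counts in some group, of which 1 is not reported here. Marker genes of other cells were named by list. Of the listed genes Trac, Trbc1, Trbc2, Trdc, Tcrg-C1, Tcrg-C2, Cd244a, Adgre1 and Jchain have no row in the table used. Alternatives were DESeq2's size factors, no filter, DESeq2, the compared groups alone, a replicate block, a term for library numbers of 152 or above, and leaving out each library.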

Additional observations from a re-analysis of the deposited data

Results flagged for a closer look

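For 3 genes of the T cell lists the effect of the knock-in on normal colon differed between females and males by the test of that difference, on the log2 scale as female minus male. For Thy1 the difference was 1.3 (edgeR adjusted p = 0.0235), with 6.85 and 18.3 CPM in WT and KI females and 15.8 and 17.3 CPM in WT and KI males. For Il15 it was 1.44 (edgeR adjusted p = 0.0203), with 16.9 and 30.2 CPM in females and 20.8 and 13.6 CPM in males. For Cd160, a receptor of natural killer and intraepithelial cells, it was -1.93 (edgeR adjusted p = 0.0352), with 3.37 and 1.52 CPM in females and 1.84 and 3.27 CPM in males. The call was lost in 6 of 18 alternatives for Thy1, 3 of 18 for Il15 and 10 of 18 for Cd160, with adjusted p up to 0.0751, 0.0717 and 0.105, among them the fits without WT female normal 1, WT female normal 2 or KI female normal a for each of the 3. No T cell or granule marker of the main set met that test. Samples far from their group were not searched for, since groups hold 3 libraries.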

How the results depend on the processing

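Over 12 comparisons the number of members called changed in 2. In WT female tumours it was 1 (Gzmb), 2 with DESeq2 (Gzmb and Cd8b1), 0 with the compared groups alone, where the low-count filter removed Gzmb, and 0 with the library-number term. With the compared groups alone and the genes of the full filter kept, a fit chosen after seeing the data, it was 1 (log2 3.51, edgeR adjusted p = 0.00361). Leaving out each library gave 1 to 2, with 2 only without WT female normal 2. For KI against WT female normal colon it was 0, and 1 with DESeq2 (Cd4). The replicate block left 1 member called in WT female tumours (Gzmb, log2 3.39) and 0 in WT males, and changed no other member's call. Among the genes named by the rule in WT males, the fit with the replicate block ended the call of Cxcl10 (edgeR adjusted p = 0.0553), a call kept in 6 of 13 alternatives.

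Some differences changed sign when a library was left out, none of them called. Gzma in KI male tumours was -0.35, and -1.73 to 0.11 over the leave-outs. Gzmb between WT tumours of females and males was -0.42, and -0.97 to 0.13. In the KI minus WT interaction of males, Cd8a was -0.23 with leave-outs from -0.9 to 0.48, and Gzma was -0.4 with leave-outs from -1.79 to 0.08. Of 108 member differences 41 changed sign in at least 1 alternative, none called when it did. Low counts limit all of this, as 3 counts were 0.873 CPM in the shallowest library, WT male tumour 2.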
